A study of Bos taurus with 15 samples.

Results

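Histone methylation writers and erasers are the enzymes that add methyl groups to histones or take them off again. The genes described here were those whose symbol in the deposited gene table matches a list of enzyme families: the KMT, SETD, SETDB, EHMT, SUV39H, NSD (also listed as WHSC1), SMYD and PRMT writers, the Polycomb subunits EZH1, EZH2, EED and SUZ12, DOT1L, ASH1L, ASH2L, and the KDM erasers. The rule used symbols only and found 59 of the 24616 genes of the table, 39 of them writers, 15 erasers and 5 SETD genes whose main substrates are not histones or are not settled.

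RNA of bovine (Bos taurus) oocytes was sequenced as 15 libraries that fall into 5 groups of 3. Fresh oocytes were the controls, and the other groups were vitrified, which is cooling so fast in a concentrated cryoprotectant that water sets as a glass without ice. Vitrification was in liquid helium or in liquid nitrogen, each with cryoprotective agent at 5.6 M or at 6.6 M, so that the coolant and the concentration could be compared as well as vitrification itself. All groups shared maturation in IVM (in vitro maturation) medium for 22 to 24 h and removal of the surrounding cumulus cells with hyaluronidase. The sample labels call the cells IVM oocytes from ovary, whereas the series' own text calls them immature. The labels do not say whether a library held 1 oocyte or several, nor whether libraries of a group came from separate animals or cultures, so a p-value given here reflects the scatter among the sequenced libraries alone, and that scatter may be technical.

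Library totals ran from 1601519 to 8569618 counts and went with the coolant: the 6 helium libraries and nitrogen 6.6 M library 3 held over 5000000 counts, the other 8 fewer. Levels are given as normalised FPKM, which is the deposited FPKM (fragments scaled by transcript length and by library total) divided by each library's TMM scaling factor from edgeR, so that they can be compared between genes per length and between libraries. These levels are shares of a library, and in bulk libraries fewer cells of a type and less RNA per cell cannot be told apart. The oocyte markers fitted the label: 12 of 14 listed were in the table, all at a mean of 1 FPKM or more, with summed levels of 5297 to 10415 CPM (counts scaled to a common total) in fresh, 9002 to 10172 and 8402 to 10533 in helium 5.6 M and 6.6 M, and 6174 to 7437 and 6493 to 8564 in nitrogen 5.6 M and 6.6 M libraries. Of the 17 cumulus and granulosa markers in the table, 9 had a mean of 1 FPKM or more, while FSHR and FOXL2 had no count in any library. STAR at 140 to 283 CPM, HAS2 at 83.5 to 126 and PTGS2 at 47.5 to 86.0 were present in every library. The summed level was 389 to 536 CPM in fresh, 394 to 442 and 366 to 649 in helium, and 407 to 425 and 388 to 416 in nitrogen libraries. The highest of these was helium 6.6 M library 2, where TIMP1 reached 130 CPM (median of all libraries 0.936). That library was also the highest for SERPINE2 (61.8, median 22.7), TNFAIP6 (30.8, median 0.541), VIM (16.8, median 1.15) and CYP11A1 (6.37, median 0). The same held at lower levels for PTX3, INHA and AMH. STAR, HAS2, PTGS2, VCAN, CD44, CYP19A1 and INHBA were highest in other libraries. Whether it held more cumulus cell RNA was not tested. Blood and immune markers summed to at most 8.11 CPM in any library, with CD14, HBB and TYROBP at 0.

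Writers are grouped by the residue they methylate. Marks on H3K4 sit at promoters and enhancers, H3K36 and H3K79 marks follow transcription, H3K9 and H4K20 marks go with compacted chromatin, and H3K27 marks are laid down by Polycomb repressive complex 2 (PRC2). Erasers are either flavin-dependent amine oxidases, the KDM1 family, or Jumonji-domain enzymes, all the other KDM families. In a growing oocyte these enzymes set the maternal chromatin, and their stored transcripts and proteins serve the embryo until its own genome is switched on.

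Levels differed widely between these genes. A mean level of at least 10 FPKM over the 15 libraries was reached by 14 of the 59 genes, 19 lay between 1 and 10, and 26 lay under 1. In all 15 libraries 28 genes stood at 1 FPKM or more, and 13 did so in none. PRMT8, an arginine methyltransferase best known from brain, had no count in any library, SMYD1, known from muscle, had 1 count in 1 library, and the H3K4 writer SETD7 had 2 counts in all. For testing, 41 genes had enough counts under edgeR's filter (28 writers, 10 erasers, 3 other SETD genes). The 18 that did not pass had mean levels of at most 0.840 FPKM.

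**Figure D1:**
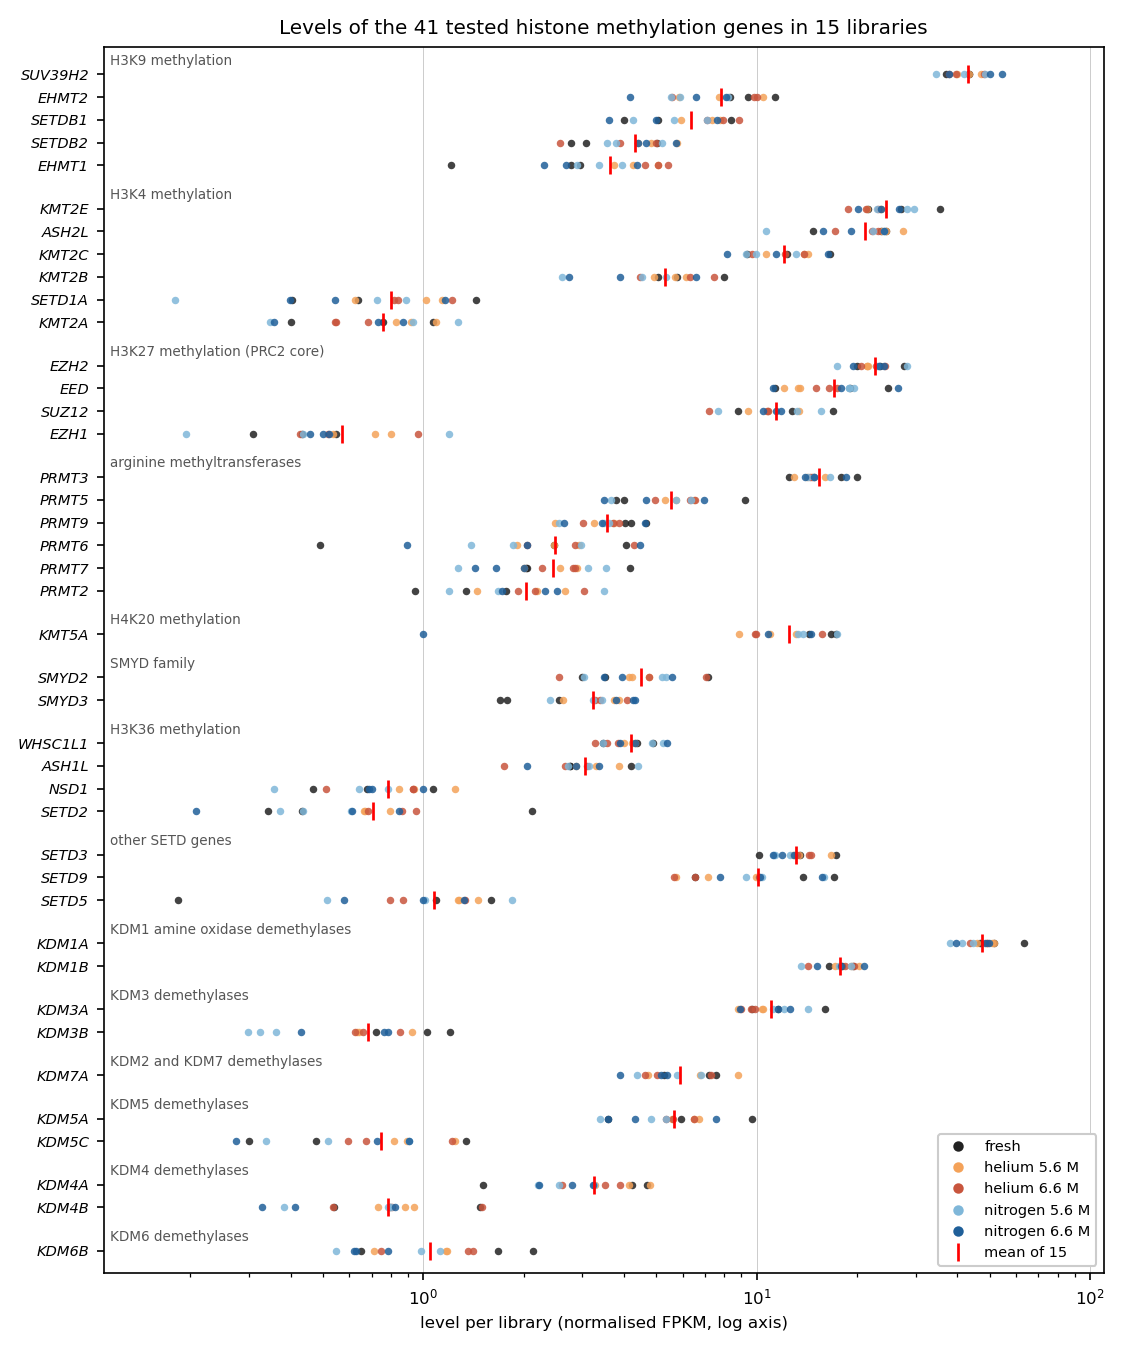
Level of each of the 41 tested genes (normalised FPKM, log axis) in 15 libraries, sorted by role. Each point is a library coloured by group and the red bar is the mean of 15. KDM1A and SUV39H2 stand above all others, and the points of the 5 groups are mixed for most genes.

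KDM1A and SUV39H2 were the most abundant transcripts of the group. KDM1A (ENSBTAG00000009500, UMD3.1 chr2:130370509-130436531), the H3K4 eraser also called LSD1, averaged 47.6 ± 6.12 FPKM (SD, n = 15) and SUV39H2 (ENSBTAG00000010210, chr13:29813365-29835882), which trimethylates H3K9, 43.2 ± 5.61. In mean level 77.3% and 75.6% of all tested genes lay below them. The order between them was not settled, since KDM1A was the higher in only 10 of 15 libraries. Below them KMT2E followed at 24.5 ± 4.29, a gap larger than the spread of either gene and present in 15 of 15 libraries. From there the order ran EZH2, ASH2L, KDM1B, EED, PRMT3, SETD3, KMT5A, KMT2C, SUZ12, KDM3A and SETD9, and of these neighbours only PRMT3 and SETD3 were further apart than the larger of their SDs (2.25 FPKM, in 14 of 15 libraries).

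Among H3K9 writers SUV39H2 made up 65.2% ± 6.33 (SD, n = 15) of the summed level of the 6 genes. It was accompanied by EHMT2 (G9a) at 7.80 ± 2.14 FPKM and its heterodimer partner EHMT1 (GLP) at 3.64 ± 1.19, which place mono- and dimethyl marks, and by SETDB1 at 6.38 ± 1.69 and SETDB2 at 4.31 ± 1.01. SUV39H1, the paralogue of SUV39H2, stood at 0.783 ± 0.438 FPKM and had no count in 1 library. SUV39H2 was the higher of this enzyme pair in every library.

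The H3K4 writers were led by KMT2E, whose SET domain is better known for binding chromatin than for methylating it, and by ASH2L at 21.1 ± 4.60 FPKM, a shared subunit of the complexes in which KMT2 enzymes work. Of the catalytic subunits, KMT2C, which methylates H3K4 at enhancers, stood at 12.1 ± 2.59 and KMT2B, an enzyme of promoter H3K4 trimethylation, at 5.30 ± 1.53. KMT2A at 0.756 ± 0.279 and SETD1A at 0.802 ± 0.350 were far lower. KMT2D averaged 0.0875 FPKM and SETD1B had counts in 6 libraries only. The summed level of the 9 genes was 64.7 ± 8.96 FPKM.

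Transcripts of all core subunits of PRC2 were present. EZH2, the catalytic subunit, averaged 22.6 ± 2.87 FPKM, EED, which reads the mark the complex makes, 17.1 ± 4.58, and SUZ12, its scaffold, 11.4 ± 2.71. The alternative catalytic subunit EZH1 stood at 0.571 ± 0.255. EZH2 had one of the smallest spreads of the whole group, with a coefficient of variation of 12.7% over 15 libraries. Against a median of 27.8% over the 41 tested genes and 26.4% over all tested genes, the lowest value was that of KDM1B (12.2%) and the highest that of SETD2 (63.1%).

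H3K36 writers were low as a class, with a summed level of 9.18 ± 1.51 FPKM over 5 genes. WHSC1L1 (NSD3) led at 4.21 ± 0.659, followed by ASH1L at 3.05 ± 0.718. NSD1 and SETD2, the enzyme of H3K36 trimethylation, were at 0.786 ± 0.241 and 0.708 ± 0.446, and WHSC1 (NSD2) at 0.423 ± 0.247. DOT1L, the only H3K79 writer, stood at 0.228 ± 0.146 FPKM with no count in 3 libraries. H4K20 monomethylation was represented by KMT5A at 12.5 ± 4.22, while KMT5C, which adds further methyl groups to that residue, stood at 0.538 ± 0.397.

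The arginine methyltransferases with a PRMT symbol were led by PRMT3, which methylates a ribosomal protein, at 15.4 ± 2.08 FPKM and by PRMT5, the main enzyme of symmetric arginine methylation, at 5.55 ± 1.54. PRMT9, PRMT6, PRMT7 and PRMT2 followed at 3.55, 2.48, 2.45 and 2.03 FPKM. CARM1, an arginine methyltransferase whose symbol the rule leaves out, stood at 3.57 ± 1.39 FPKM, and no gene of the table bears the symbol PRMT1. In the SMYD family, SMYD2 stood at 4.51 ± 1.38 and SMYD3 at 3.23 ± 0.841. Of the other SETD genes, SETD3, which methylates a histidine of actin, averaged 13.2 ± 1.99 and SETD9 10.1 ± 3.84.

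The erasers together amounted to 95.8 ± 8.84 FPKM and the writers to 245 ± 11.0. KDM1A made up 72.6% ± 2.98 of the KDM1 sum beside KDM1B, the second H3K4 amine oxidase and one known from the growing mouse oocyte, at 17.8 ± 2.18 FPKM. Among the genes found by the symbol rule, the Jumonji families followed with KDM3A, an H3K9 eraser, at 11.1 ± 2.06, KDM7A at 5.91 ± 1.41 and the H3K4 eraser KDM5A at 5.64 ± 1.67. Enzymes whose symbols the rule leaves out are missing from this order and from the sums. Among the Jumonji-domain genes of these, MINA at 16.7 ± 2.74 FPKM, JMJD1C at 16.5 ± 3.11 and HSPBAP1 at 16.1 ± 3.33 had higher means than KDM3A. KDM4A, which acts on H3K9 and H3K36, stood at 3.26 ± 0.963 and KDM4B at 0.783 ± 0.346. Low among the erasers were also the H3K27 enzymes, with KDM6B at 1.05 ± 0.453 and KDM6A at a mean of 0.166 FPKM. KDM2A and KDM2B averaged 0.371 and 0.167, KDM5C 0.749, KDM3B 0.683, and KDM8 had counts in 5 libraries, all of them helium libraries, with 3 counts at most.

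One paralogue dominated in most families. Of 15 pairs of related genes, a list drawn up after the levels had been seen and so given without a test, 13 had the same gene higher in all 15 libraries. Examples are EZH2 over EZH1, KDM3A over KDM3B, KMT2C over KMT2D, KDM5A over KDM5C and EHMT2 over EHMT1. KMT5A over KMT5C was also among them, although these enzymes share a residue and make different marks on it. SETDB1 exceeded SETDB2 in 13 libraries and KDM2A exceeded KDM2B in 11.

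All 12 vitrified libraries were first set against the 3 fresh ones, to ask whether vitrification as such went with other levels of these enzymes. No gene of the group passed the threshold of 0.05 on the adjusted p of edgeR's quasi-likelihood test: 0 of 41, where 0.509% of all 8441 tested genes did. At an unadjusted p under 0.05 there were 3 of 41 (EHMT1, SMYD3 and KDM3B), or 7.32%, against 13.6% of all tested genes. DESeq2 also called 0, among the 27 genes for which it gave an adjusted p, against 3.07% of all genes with one. The log2 fold changes ran from -0.77 to 0.79, and 28 of 41 had a 95% confidence interval within a 2-fold change either way. The other 13 intervals reached a 2-fold change, so that for those genes a change of that size in at least 1 direction was not excluded.

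**Figure D2:**
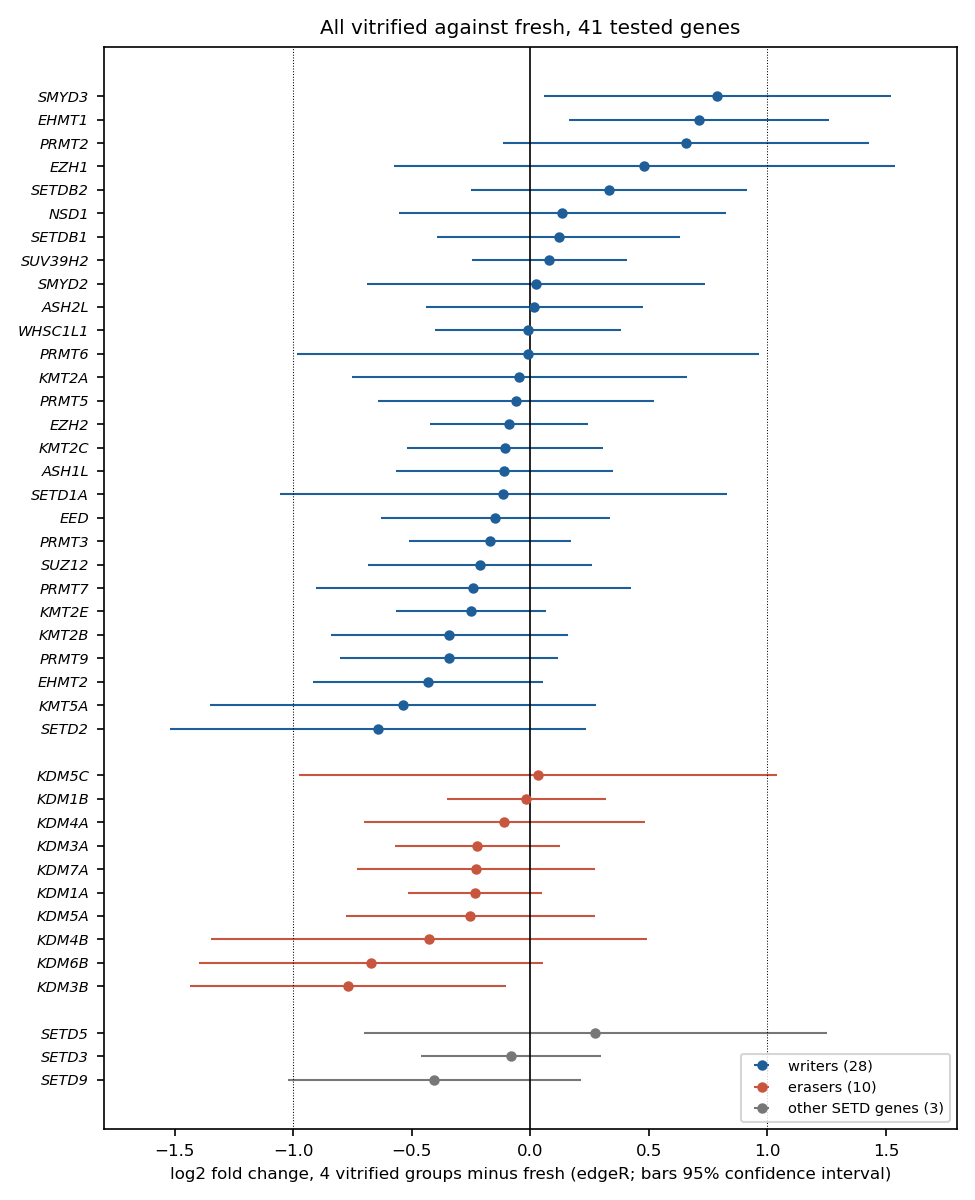
Log2 fold change of all vitrified groups against fresh for the 41 tested genes, with 95% confidence intervals from edgeR. Dotted lines mark a 2-fold change. Erasers lie left of 0 in 9 of 10 cases, most intervals cross 0, and no gene passed the adjusted threshold.

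Several of the abundant members had values near 0. SUV39H2 was at 43.4, 37.1 and 43.3 FPKM in fresh libraries, and at 34.5 (lowest), 42.6 (median) and 54.7 (highest) in vitrified ones. The fresh values lay inside the vitrified range, and the log2 fold change was 0.08 with a 95% interval of -0.24 to 0.41 (adjusted p = 0.885). KDM1B, EZH2 and KMT2C had log2 fold changes of -0.02, -0.09 and -0.11. Intervals were wider for other abundant members, from -1.35 to 0.28 for KMT5A (log2 fold change -0.54), -1.02 to 0.21 for SETD9 (-0.40) and -0.63 to 0.33 for EED (-0.15). KDM1A was at 46.7, 51.4 and 63.5 FPKM in fresh and from 38.1 to 51.6 in vitrified libraries (median 47.2). Only fresh library 3 lay above all vitrified libraries, and the log2 fold change of -0.23 had an interval of -0.52 to 0.05 (adjusted p = 0.473).

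EHMT1 (ENSBTAG00000012148, UMD3.1 chr11:105429172-105493391) had the smallest p of the group. It stood at 1.21, 2.95 and 2.77 FPKM in fresh libraries and at 2.30 (lowest), 4.11 (median) and 5.42 (highest) in the 12 vitrified ones, on 8, 26 and 29 counts in fresh. Most vitrified libraries were above the fresh ones, but the nitrogen libraries overlapped them. The log2 fold change was 0.71 (SE 0.26, adjusted p = 0.231). SMYD3, a cytoplasmic and nuclear lysine methyltransferase, was at 1.70, 2.55 and 1.79 FPKM in fresh and from 2.40 to 4.31 in vitrified libraries, with a log2 fold change of 0.79 (SE 0.35, adjusted p = 0.324). Its fresh values rest on 3, 6 and 5 counts, and only 1 vitrified library, nitrogen 5.6 M library 2, fell within the fresh range.

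The other genes with the smallest p among those with higher values after vitrification were PRMT2, an arginine methyltransferase, at a log2 fold change of 0.66 (SE 0.37), SETDB2 at 0.33, EZH1 at 0.48, SETD5 at 0.27 and SETDB1 at 0.12. PRMT2 was at 0.946, 1.78 and 1.34 FPKM in fresh and at 1.20 to 3.49 in vitrified libraries, which overlap. None of the 5 had an adjusted p under 0.4, and the values of SETD5 and SETDB1 lay on the other side of 0 without 1 of the fresh libraries (SETD5 -0.28 without library 3, SETDB1 -0.03 without library 1). SUV39H2 came to -0.0011 without fresh library 2.

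KDM3B, an H3K9 eraser, had the smallest p among genes with lower values after vitrification. Its levels were 1.03, 1.20 and 0.722 FPKM in fresh libraries and 0.298 (lowest), 0.637 (median) and 0.923 (highest) in vitrified ones. Fresh library 3 lay within the vitrified range, and the log2 fold change was -0.77 (SE 0.32, adjusted p = 0.283). KDM6B, the H3K27 eraser, was at 1.68, 2.13 and 0.652 in fresh and at 0.548 to 1.41 in vitrified libraries, with a log2 fold change of -0.67 (SE 0.35, adjusted p = 0.408). Fresh library 3 was again among the vitrified values.

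Log2 fold changes of the remaining named genes on the lower side were -0.43 for EHMT2 (SE 0.23), -0.23 for KDM1A, -0.25 for KMT2E, -0.34 for PRMT9, -0.64 for SETD2 and -0.34 for KMT2B. SETD2 was at 0.343, 2.13 and 0.433 FPKM in fresh and at 0.209 to 0.953 in vitrified libraries, so that fresh library 2 alone was high, and without it the log2 fold change was 0.65. With a term for deeper and shallower libraries in the fit, EHMT2 came to 0.04 and KMT2B to 0.19. That term rests on nitrogen 6.6 M library 3, the only deep library outside helium.

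As a group the genes lay slightly on the lower side. Of 41 fold changes 29 were below 0 and 12 above, where 46.5% of all tested genes were above 0. The median was -0.11 against -0.03 for all tested genes. The vitrified groups did not share this lean equally. Against fresh the median was 0.002 in helium 5.6 M (21 above 0) and -0.06 in helium 6.6 M (16 above 0). It was -0.12 in nitrogen 5.6 M (13 above 0) and -0.19 in nitrogen 6.6 M (11 above 0). Writers had 18 of 28 below 0 and a median of -0.07, erasers 9 of 10 below 0 and a median of -0.23, KDM5C being the exception at 0.03. The summed level of the erasers was 106 ± 6.84 FPKM in fresh (n = 3) and 93.2 ± 7.34 in vitrified libraries (n = 12), and that of the writers 256 ± 17.0 and 243 ± 7.84. Of the eraser sums KDM1A alone made up 53.9 ± 8.69 FPKM in fresh and 46.0 ± 4.52 in vitrified libraries. For all vitrified against fresh, the direction of the median over all tested members depended on fresh library 2. Without that library, 27 of 47 genes then tested were above 0 and the median was 0.07. With the depth term the median was 0.07 as well, with 26 of 41 above 0. It was -0.20 without fresh library 3, and -0.06 without nitrogen 5.6 M library 2 or without nitrogen 6.6 M library 3.

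That library carried high values for many members. Fresh library 2 was the highest of all 15 libraries for 14 of 41 genes (34.1%), against 14.9% of all tested genes. These were EHMT2, KDM3B, KDM5A, KDM5C, KDM6B, KMT2B, KMT2C, PRMT3, PRMT5, PRMT7, PRMT9, SETD1A, SETD2 and SETD3. The median deviation of the 41 genes from their own means was 0.31 (log2) there, -0.17 in fresh library 3 and -0.27 in nitrogen 6.6 M library 3. For the 13 genes with transcripts of 5 kb or longer it was 0.65 in fresh library 2 and -0.53 in nitrogen 6.6 M library 3, while all 610 tested genes of that length had medians of 0.13 and -0.12. The part of transcript length in these deviations was not tested further.

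**Figure D3:**
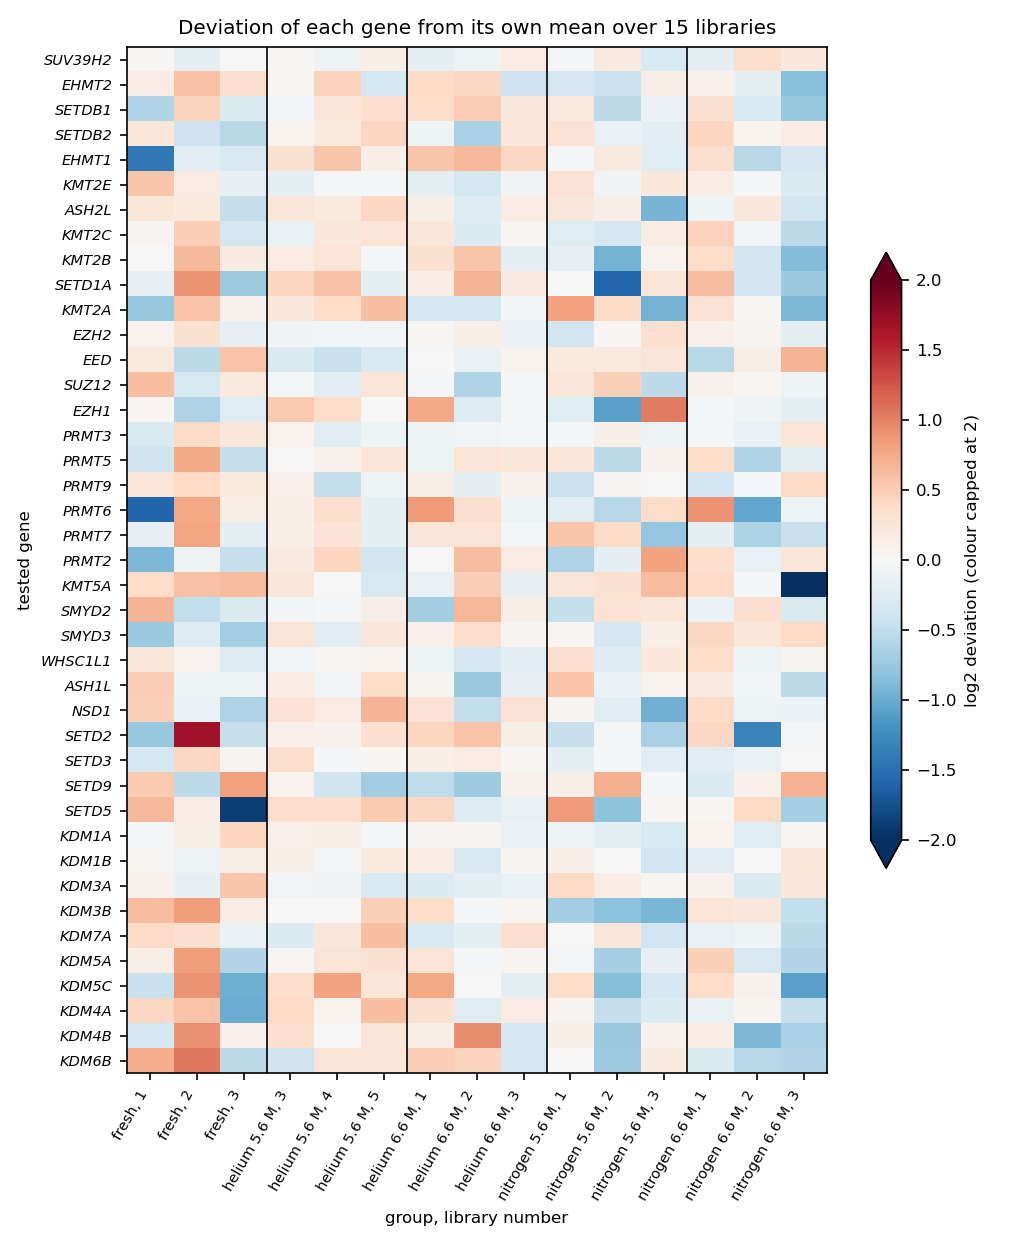
Log2 deviation of each of the 41 tested genes from its own mean over 15 libraries, with libraries as columns by group and number and genes as rows in the order of roles. Fresh library 2 is red for many rows, nitrogen 6.6 M library 3 is blue for many rows, and the darkest cell belongs to KMT5A in the latter.

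Spread within groups also differed. The median SD over genes of the log2 level was 0.41 in fresh, 0.20 and 0.24 in helium 5.6 M and 6.6 M, and 0.34 and 0.33 in nitrogen 5.6 M and 6.6 M, each within 0.03 of the value over all tested genes (0.42, 0.20, 0.25, 0.31 and 0.31). The low spread of the helium groups went with their depth. By transcript length, the median fold change of all tested genes in vitrified against fresh went from 0.09 under 1000 bases to -0.14 at 5000 to 8000 bases, where the 8 members had a median of -0.25, and was -0.11 from 8000 bases on, where the 5 members also had a median of -0.11.

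Each vitrified group was then compared with fresh on its own. These comparisons share the 3 fresh libraries. No member passed in any of them by edgeR, against 0.474% of all tested genes for helium 5.6 M, 0.628% for helium 6.6 M, 0.0118% for nitrogen 5.6 M and 0.0474% for nitrogen 6.6 M. The members at an unadjusted p under 0.05 numbered 1, 3, 2 and 3, where the shares of all tested genes were 14.1%, 15.4%, 6.74% and 8.23%. DESeq2 called EHMT1 in helium 6.6 M, 1 of the 37 members with an adjusted p, where it called 255 genes in all (3.35%), so that 1 member is no more than the share over all genes would bring. It called no member in the other 3 groups. All 6 helium libraries were deep and all 3 fresh ones shallower. In the helium comparisons vitrification and depth therefore cannot be told apart, except through nitrogen 6.6 M library 3. With the depth term, which rests on that library, the members' median against fresh went from 0.002 to 0.45 in helium 5.6 M. In helium 6.6 M it went from -0.06 to 0.39.

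EHMT1 in helium 6.6 M against fresh came nearest to the threshold. Its levels there were 5.07, 5.42 and 4.63 FPKM against 1.21, 2.95 and 2.77 in fresh, with no overlap, and the log2 fold change was 1.09 (SE 0.30, adjusted p = 0.0959 with edgeR). DESeq2 gave 1.08 with an adjusted p of 0.0212, edgeR without a filter on low counts 1.14 with 0.0331, and edgeR without fresh library 2 gave 1.25 with 0.0356. In helium 5.6 M its levels were 4.25, 5.07 and 3.73, also above all fresh libraries, with a log2 fold change of 0.88 (SE 0.30, adjusted p = 0.180). In nitrogen 5.6 M it stood at 3.36, 3.96 and 2.89 and in nitrogen 6.6 M at 4.37, 2.30 and 2.68, and both overlapped with fresh.

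Its partner EHMT2 (ENSBTAG00000005676, UMD3.1 chr23:27277900-27291344) lay the other way. EHMT2 was at 8.32, 11.4 and 9.45 FPKM in fresh, at 7.70, 10.4 and 5.85 in helium 5.6 M and at 9.83, 10.0 and 5.59 in helium 6.6 M. In nitrogen it was at 5.90, 5.53 and 8.24 at 5.6 M and at 8.09, 6.57 and 4.17 at 6.6 M. All 6 nitrogen libraries were below all fresh ones, whereas the helium libraries overlapped with them. The log2 fold change for nitrogen 6.6 M was -0.67 (SE 0.30, adjusted p = 0.575).

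Within each library the level of EHMT2 relative to EHMT1 was taken per length, with 0.5 added to each count. This ratio needs no scaling between libraries and was 6.53, 3.80 and 3.37 in fresh oocytes, the first on 8 counts of EHMT1. In vitrified libraries it was 1.81, 2.06 and 1.57 for helium 5.6 M, 1.94, 1.84 and 1.21 for helium 6.6 M, 1.75, 1.39 and 2.81 for nitrogen 5.6 M, and 1.84, 2.82 and 1.55 for nitrogen 6.6 M. All 12 vitrified libraries were thus below all 3 fresh ones. The mean log2 ratio was 2.13 in fresh and 0.87 in vitrified libraries, a difference of -1.26, which stayed between -0.97 and -1.45 when any 1 library was left out and was -1.10 among the 8 shallower libraries.

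This ratio was picked after its values were seen and is given as a description. Since its libraries did not overlap, leaving some out could not reverse its direction. Of all 820 pairs among the 41 tested members, 18 pairs (2.20%) also separated the vitrified from the fresh libraries without overlap, a share close to the 1.96% found over the 35621020 pairs of all tested genes. Among the 9 listed paralogue pairs with both genes tested, EHMT2 and EHMT1 was the only such pair.

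**Figure D4:**
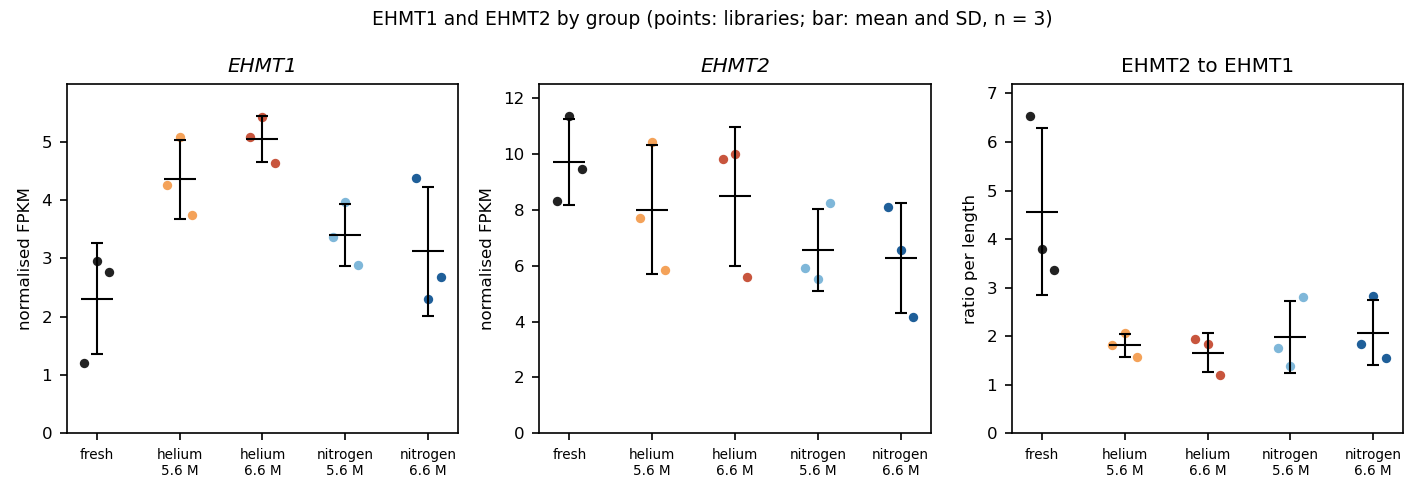
EHMT1 and EHMT2 (normalised FPKM) and the ratio of EHMT2 to EHMT1 per length by group. Points are libraries, the bar is the mean and SD (n = 3). The ratio is 3.37 or more in fresh and at most 2.82 in vitrified libraries.

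Other members with libraries that did not overlap with fresh were few. No member separated all 12 vitrified libraries from fresh, where 2.03% of all tested genes did. In helium 5.6 M 4 of 41 did not overlap (EHMT1 and SMYD3 higher, KMT5A and PRMT9 lower; 18.1% of all tested genes), and in helium 6.6 M also 4 (EHMT1, PRMT2 and SMYD3 higher, PRMT9 lower; 16.3%). In nitrogen 5.6 M the 4 were EHMT2, KDM1A, KDM3B and PRMT9, all lower (9.26%), and in nitrogen 6.6 M the 3 were SMYD3, higher, with EHMT2 and PRMT7, lower (9.31%). As shares of the 41 tested members these counts came to 9.76% in the first 3 of these groups and 7.32% in nitrogen 6.6 M, below the share of all tested genes except in nitrogen 5.6 M, where it was close to it.

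Nitrogen 5.6 M held the lowest levels of KDM3B. They were 0.363, 0.324 and 0.298 FPKM, on 5, 4 and 3 counts, below each of the other 12 libraries. Against fresh the log2 fold change was -1.55 (SE 0.47, adjusted p = 0.440). The same group had KDM1A at 44.6, 41.3 and 38.1 FPKM (log2 fold change -0.38, adjusted p = 0.717) and a log2 fold change of -0.60 for KMT2B. On the higher side its smallest p belonged to EHMT1 (0.52), PRMT2 (0.57) and SMYD3 (0.57).

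SMYD3 in nitrogen 6.6 M was at 4.31, 3.79 and 4.26 FPKM, all above fresh, with a log2 fold change of 1.02 (SE 0.40, adjusted p = 0.484). KDM6B there was at 0.786, 0.628 and 0.62 (log2 fold change -1.13, SE 0.46, adjusted p = 0.488), just below the lowest fresh library in 2 of 3 cases. PRMT2 and SETDB2 had values of 0.67 and 0.47.

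KMT5A, the H4K20 monomethylase, showed the widest gap of any single library. In nitrogen 6.6 M it was at 14.5, 10.8 and 0.997 FPKM, the last on 15 counts in a library of 7392972, while the other 14 libraries lay between 8.87 and 17.4. Fresh libraries held 14.3, 16.7 and 17.3. Helium 5.6 M libraries, at 13.1, 11.0 and 8.87, lay below all fresh ones, with a log2 fold change of -0.55. For nitrogen 6.6 M the log2 fold change was -1.02 (adjusted p = 0.651), a value that turns on library 3.

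**Figure D5:**
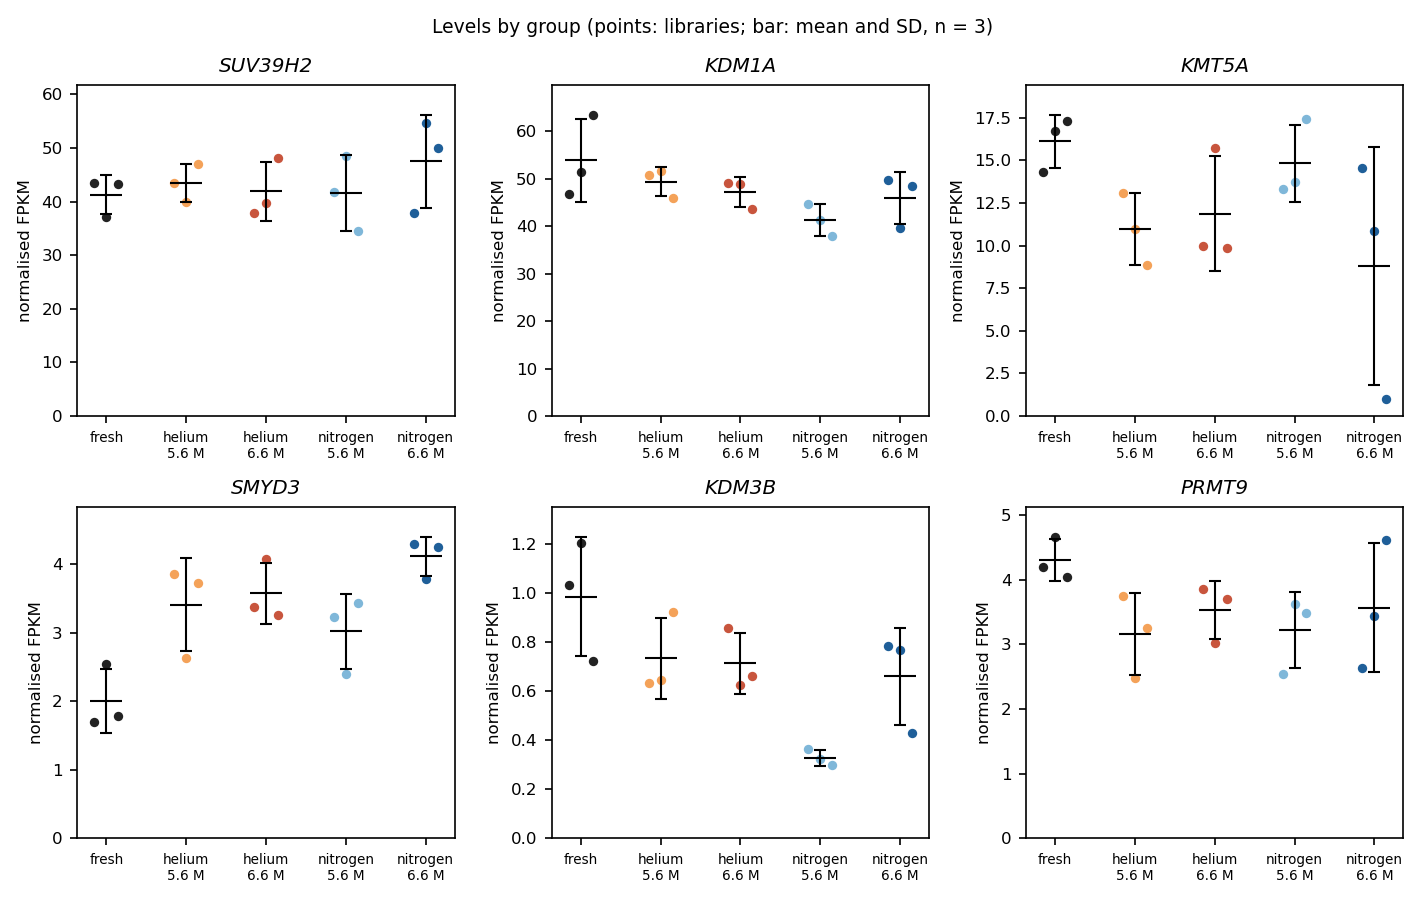
Levels (normalised FPKM) of SUV39H2, KDM1A, KMT5A, SMYD3, KDM3B and PRMT9 by group. Points are libraries, the bar is the mean and SD (n = 3). SUV39H2 overlaps in all groups, KDM3B is lowest in nitrogen 5.6 M, and 1 nitrogen 6.6 M library has KMT5A at 0.997.

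In the helium groups the lower side was led by other genes. Against fresh, SETD9 had log2 fold changes of -0.70 at 5.6 M and -0.74 at 6.6 M, EED -0.51 and PRMT9 -0.44 at 5.6 M, and KMT2E -0.41 and KDM3A -0.39 at 6.6 M. On the higher side SMYD3 followed EHMT1 with 0.75 and 0.82, then SETDB2 with 0.49 at 5.6 M and PRMT2 with 0.78 at 6.6 M. None passed, and the smallest adjusted p after that of EHMT1 was 0.318 for KMT2E. PRMT9 was at 4.20, 4.66 and 4.04 FPKM in fresh, 3.74, 2.48 and 3.26 in helium 5.6 M and 3.86, 3.02 and 3.71 in helium 6.6 M. All 6 helium libraries were below all fresh ones.

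Helium and nitrogen were compared to ask whether the temperature of the coolant mattered. Over both concentrations 0 of 41 members passed by edgeR, against 0.663% of all tested genes, 5 had an unadjusted p under 0.05 (12.2%, against 16.0% of all tested genes), and DESeq2 called 0. Those 5 were EHMT1 (log2 difference helium minus nitrogen 0.54), KDM3B (0.67), KMT2B (0.47) and SETDB1 (0.45) on the higher side in helium and SETD9 (-0.64) on the lower. Next on the lower side were EED (-0.39) and KDM3A (-0.28). The smallest adjusted p was 0.207, for EHMT1.

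Members were more often higher in helium. Of 41 differences 28 were above 0, with a median of 0.19 against 0.03 for all tested genes, and no member separated the 6 helium from the 6 nitrogen libraries (3.36% of all tested genes did). SETD9 was at 9.97, 7.13 and 5.75 FPKM in helium 5.6 M, 6.55, 5.67 and 10.2 in helium 6.6 M, 10.4, 15.9 and 9.32 in nitrogen 5.6 M and 7.77, 10.3 and 15.7 in nitrogen 6.6 M. Because all 6 helium libraries and only 1 nitrogen library were deep, coolant and depth cannot be told apart except through nitrogen 6.6 M library 3. With depth as a term, which rests on that library, 1 of 41 members was called (KMT5A, which is low there) among 13 genes in all (0.154%), and the median difference of the members was 0.44, with 30 above 0. Without nitrogen 6.6 M library 1 the median was 0.31 over the 48 members then tested. Without a filter on low counts it was 0.33 over 58, where that of all genes was 0.18. Lower medians came without helium 6.6 M library 1 (0.14), without nitrogen 6.6 M library 3 (0.16) and without nitrogen 5.6 M library 2 (0.16). At 5.6 M alone the median was 0.22, and 0.05 without nitrogen 5.6 M library 2, with 27 of 48 above 0.

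Within 1 concentration, no member passed between helium and nitrogen, and no gene of the 8441 did either (0.00%), and DESeq2 called 0 members. At an unadjusted p under 0.05 edgeR had 1 member at 5.6 M (9.51% of all tested genes) and 2 at 6.6 M (8.03%). At 5.6 M the smallest p among genes higher in helium belonged to KDM3B (1.13, adjusted p = 0.427), NSD1 (0.73) and KDM4A (0.60), and among those lower to EED (-0.56), SETD9 (-0.63) and KDM3A (-0.34). At 6.6 M they were EHMT1 (0.73, adjusted p = 0.598), SETDB1 (0.61) and KDM6B (0.82) on the upper side and SETD9 (-0.64), WHSC1L1 (-0.34) and SETDB2 (-0.35) on the lower.

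The concentration of cryoprotectant was compared last. Between 6.6 M and 5.6 M, edgeR called 0 members and 0 of all genes (0.00%) in helium, in nitrogen and over both coolants, and DESeq2 called 0 as well. An unadjusted p under 0.05 was reached by 0 members in helium (2.0% of all tested genes), by 0 in nitrogen (1.97%) and by KMT2A over both coolants (2.24%), with a log2 difference of -0.60 (95% interval -1.17 to -0.02) and an adjusted p of 1.00. KMT2A was at 0.827, 0.919 and 1.09 FPKM in helium 5.6 M and 0.549, 0.545 and 0.682 in helium 6.6 M, which do not overlap. Nitrogen 5.6 M had it at 1.27, 0.930 and 0.348 and nitrogen 6.6 M at 0.869, 0.730 and 0.358, which do.

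Median differences were -0.03 in helium, 0.00 in nitrogen and -0.01 over both coolants, and 40 of 41 members lay within 0.5 of 0 over both. Without nitrogen 6.6 M library 1 the median was -0.25 in nitrogen and -0.13 over both coolants, and without nitrogen 5.6 M library 2 it was -0.14 and -0.07. In helium the smallest p after KMT2A belonged to ASH1L (-0.42), SETDB2 (-0.38), EED (0.33), EHMT1 (0.21) and PRMT6 (0.31). The nitrogen values were KMT5A (-0.89), PRMT7 (-0.69), KMT2A (-0.53), KDM3B (0.88), SMYD3 (0.45) and SUV39H2 (0.19), of which that of KMT5A turns on library 3 of the 6.6 M group. Over both coolants KDM3B (0.43), SMYD3 (0.26) and PRMT9 (0.18) led the upper side and ASH1L (-0.38) and KDM7A (-0.26) followed KMT2A on the lower.

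Whether the effect of concentration differed between coolants was tested as an interaction. It gave 0 members and 0 genes in all (0.00%) by edgeR, 0 members at an unadjusted p under 0.05 (2.1% of all tested genes) and 0 by DESeq2. The smallest p went with values of 0.77 for PRMT7, 1.00 for KMT5A and 0.61 for KDM6B above 0, and -0.91 for KDM3B, -0.59 for SETDB2 and -0.69 for NSD1 below. The 95% intervals of 27 of 41 members reached a 2-fold change, so an interaction of that size was not excluded for them.

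Partners and readers of the same marks, with 35 enzymes whose symbols the rule leaves out, made up 9 lists of 117 genes outside the symbol rule. Of these genes 95 were in the table and 67 had enough counts. None passed in any of the 12 comparisons by edgeR. In all vitrified against fresh 8 of 67 had an unadjusted p under 0.05 (11.9%, against 13.6% of all tested genes), 1 higher and 7 lower. The median log2 fold change of the 67 was -0.17, beside -0.03 for all tested genes, and 19 were above 0, where 46.5% of all tested genes were. This contrast uses the same 3 fresh libraries as that of the members, whose median changed sign without fresh library 2 and with the depth term. Neither alternative was examined for these 67 genes. All 7 tested PRC2 accessory subunits were below 0 with a median of -0.27, as were 6 of 7 H3K9 partners and readers (-0.37), 8 of 12 COMPASS partners (-0.11), 6 of 10 PRC1 genes and H3K27 readers (-0.17), all 4 H4K20 and H3K36 readers (-0.19) and all 3 DOT1L partners (-0.31). Partners of the arginine methyltransferases had 3 of 5 above 0 (0.04), the LSD1 complex 1 of 4 (-0.10), and enzymes whose symbols the rule leaves out 6 of 15 (-0.03).

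Several partners stood far above the enzymes they work with. The histone chaperone RBBP7, a PRC2 subunit, averaged 2158 FPKM and RBBP4 283, beside 22.6 for EZH2. DPY30, a small subunit shared by the H3K4 writer complexes, averaged 980 FPKM beside 21.1 for ASH2L, and UHRF1, which binds methylated H3K9, 388. The smallest adjusted p of any partner was 0.118, for HSPBAP1, a Jumonji-domain gene, in helium 5.6 M against fresh.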

How the data were processed

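The deposited table held, per the file headers, whole-number counts and FPKM for each Ensembl gene and library. The submitters' processing notes list the aligner HISAT2 2.0.4, the assembler StringTie 1.3.0 and UMD3.1 as build. The authors' handling of strand, read filters and reads with several mapping places is not given in the sources used here. In all 180473 values above 0 the FPKM deposited by the authors equalled count over length and library total within 0.1%. Unscaled counts were tested in R 4.3.3 with edgeR 4.0.16: filterByExpr by group (8441 genes), TMM, 1 robust quasi-likelihood fit of 5 group means, contrasts, and Benjamini-Hochberg adjustment over all 8441 genes at 0.05. Depth was 1601519 to 8569618 counts per library. The test was checked on simulated data. DESeq2 1.42.0, RLE factors, no filter, a depth term, 2-group fits, a replicate block and leaving out each library were alternatives. Named are the 2 highest genes of each role, the 8 smallest p in each direction for vitrified against fresh and the 3 smallest elsewhere, and pairs of related genes, which were chosen after values were seen. Members and lists were chosen with earlier results of these data known. Same-group libraries differed by a chi-square per degree of freedom of 6.23 to 34.7, so none was a copy. Deviations of same-numbered libraries correlated above 0.1 in all 3 pairs only for helium 6.6 M and fresh (0.147, 0.306 and 0.227). No sequences are shown.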

Additional observations from a re-analysis of the deposited data

How the results depend on the processing

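Of 1121 alternative values of single genes, 1111 kept their direction and side of the threshold. No member passed in the main fit and most alternatives refit nearly the same libraries, so this tally was largely set in advance. The members' median in vitrified against fresh changed sign without fresh library 2 and with the depth term. Most counts of called members were 0 under every alternative run. For helium 6.6 M against fresh the count was 1 (EHMT1) without the filter on low counts (239 genes in all, 1.47%), with DESeq2 (255, 3.35%), and without fresh library 2 (598, 6.22%), and ranged from 0 to 1 over libraries left out. The cause was not tested. For helium against nitrogen it was 1 (KMT5A) with the depth term at 5.6 M, at 6.6 M and over both, among 2, 3 and 13 genes in all, and that term rests on nitrogen 6.6 M library 3. Values that changed direction in vitrified against fresh were SETD5 (-0.28 to 0.86 over libraries left out, lowest without fresh library 3), SUV39H2 (-0.0011 to 0.16, lowest without fresh library 2), SETDB1 (-0.026 to 0.46, lowest without fresh library 1), SETD2 (-1.02 to 0.65, highest without fresh library 2), and with the depth term EHMT2 (0.037) and KMT2B (0.19). PRMT6 at 6.6 M against 5.6 M in helium ranged from -0.0014 without helium 6.6 M library 1 to 0.53. With the replicate number as a block the count was 0 in the 5 comparisons where groups share all numbers, so the pairing changed no call. Helium 5.6 M shares only number 3 with other groups, so no block could be fitted there. DESeq2 gave no adjusted p for some members, which stay out of its counts. The fresh libraries held 1601519 to 2822837 counts, and the median half-width of the members' 95% intervals was 0.64 and 0.65 for the helium groups and 0.69 and 0.67 for the nitrogen groups against fresh.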
